A study of Mus musculus with 16 samples.

Results

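THOC5 peaks in first introns are the stretches of RNA recovered with the THOC5 protein that map to the first intron of a gene in mouse vascular smooth muscle cells. A peak was taken where the deposited annotation places it in intron 1 of a transcript and shows no repeat there, which chose 1449 of the 28998 peaks in the 8 deposited lists (4.997%). Another 57 first-intron peaks lay on annotated repeats and were left out. The members fell in 671 genes, and merging overlapping peaks over the lists gave 707 first-intron loci of 13205 loci in all.

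THOC5 belongs to the THO complex. That complex joins nascent transcripts as they are made and, within the larger TREX assembly, couples transcription and splicing to the export of mRNA. The first intron follows the first exon and is part of the newly made transcript close to the start of the gene. In most genes it is removed during or soon after transcription, so RNA that maps to it comes mainly from unspliced transcripts. Vascular smooth muscle cells can lose contractile features and take on features of bone-forming cells in high phosphate, the setting in which the study placed THOC5.

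RNA was immunoprecipitated with THOC5 from primary mouse cells (RIP-seq), which left 4 conditions with 2 lists each. THOC5 OE cells overexpressed THOC5 and were kept in osteogenic medium, GFP OE cells overexpressed GFP in the same medium, Pi cells had osteogenic medium alone, and Ctrl cells had growth medium. The genotype is WT in GFP OE, Pi and Ctrl cells and THOC5 overexpression in THOC5 OE cells, per the labels, which give neither the means of overexpression, the animals' age or strain, nor whether the 2 lists of a condition came from separate cultures. The p-values below therefore measure the spread between lists, which may be technical. The other 8 of 16 samples are inputs and were not analysed here, so a peak is not corrected for the amount of its RNA, and fewer cells of a kind cannot be told apart from less RNA per cell. Replicates 1 and 2 hold 4618 and 4240 peaks for THOC5 OE, 3711 and 2572 for GFP OE, 2666 and 3793 for Pi, and 2603 and 4795 for Ctrl, and read depth is unknown. Peaks have one width within a list, and widths run from 415 to 553 bp over lists. Of 10 smooth muscle genes used as markers 4 had a peak anywhere in the gene, against 0 of 10 endothelial, 1 of 10 fibroblast and 1 of 10 leukocyte genes. None of these markers had a first-intron peak.

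The start sites of 6 genes are shown because the first-intron peaks of the first 4 were among the strongest that recurred in all 8 lists, and those of Lama5 and Kidins220 separated conditions. Each run is the 300 bases from 250 before to 50 after the start in RefSeq (build GRCm38.p6, the assembly also called mm10), 5′ to 3′ on the strand of the gene, with CG dinucleotides in capitals. The Firre window is chrX:50635272-50635571 on the minus strand, that of Dync1h1 is chr12:110601145-110601444 on the plus strand, and that of Dst is chr1:34011345-34011644 on the plus strand. The Birc6 window is chr17:74528045-74528344 on the plus strand, that of Lama5 is chr2:180225810-180226109 on the minus strand, and that of Kidins220 is chr12:24974682-24974981 on the plus strand.
Firre: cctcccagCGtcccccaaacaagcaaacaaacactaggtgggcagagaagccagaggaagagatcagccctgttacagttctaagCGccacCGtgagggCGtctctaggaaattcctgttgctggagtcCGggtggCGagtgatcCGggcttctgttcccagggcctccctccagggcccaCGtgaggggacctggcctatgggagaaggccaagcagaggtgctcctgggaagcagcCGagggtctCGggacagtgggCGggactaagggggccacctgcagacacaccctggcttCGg
Dync1h1: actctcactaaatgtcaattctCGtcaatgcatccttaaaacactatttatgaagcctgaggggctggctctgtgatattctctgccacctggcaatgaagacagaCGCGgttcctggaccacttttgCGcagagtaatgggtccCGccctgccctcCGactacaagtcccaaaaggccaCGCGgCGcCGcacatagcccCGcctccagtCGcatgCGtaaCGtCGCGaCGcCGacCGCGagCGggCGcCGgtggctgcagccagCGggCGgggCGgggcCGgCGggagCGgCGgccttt
Dst: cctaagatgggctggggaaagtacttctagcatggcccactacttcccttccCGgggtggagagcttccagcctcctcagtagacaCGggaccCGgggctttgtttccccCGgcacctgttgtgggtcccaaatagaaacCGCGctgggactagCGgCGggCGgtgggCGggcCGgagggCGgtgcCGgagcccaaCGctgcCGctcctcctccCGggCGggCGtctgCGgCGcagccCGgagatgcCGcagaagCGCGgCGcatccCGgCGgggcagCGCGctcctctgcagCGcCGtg
Birc6: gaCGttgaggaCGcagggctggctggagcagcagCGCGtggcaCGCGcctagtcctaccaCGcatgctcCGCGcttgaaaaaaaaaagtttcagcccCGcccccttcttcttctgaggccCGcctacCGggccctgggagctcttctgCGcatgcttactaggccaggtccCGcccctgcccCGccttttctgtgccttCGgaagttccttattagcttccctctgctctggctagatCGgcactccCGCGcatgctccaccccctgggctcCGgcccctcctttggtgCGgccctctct
Lama5: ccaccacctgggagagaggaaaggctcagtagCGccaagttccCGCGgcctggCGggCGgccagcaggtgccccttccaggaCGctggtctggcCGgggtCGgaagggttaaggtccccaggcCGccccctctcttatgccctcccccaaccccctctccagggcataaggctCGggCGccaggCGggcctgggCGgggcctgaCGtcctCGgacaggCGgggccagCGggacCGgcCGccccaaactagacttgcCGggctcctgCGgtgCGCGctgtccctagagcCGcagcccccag
Kidins220: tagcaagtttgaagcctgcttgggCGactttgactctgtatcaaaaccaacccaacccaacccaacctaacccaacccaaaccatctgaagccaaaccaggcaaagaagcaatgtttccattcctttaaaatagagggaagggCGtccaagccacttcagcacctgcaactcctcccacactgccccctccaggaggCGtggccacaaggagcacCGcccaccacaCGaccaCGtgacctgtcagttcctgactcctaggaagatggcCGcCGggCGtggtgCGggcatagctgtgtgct
The peak centre lies 380.5 bp past the start in Firre, 466.5 in Dync1h1 and 431 in Dst. It lies 583.5 bp past the start in Birc6, 394.5 in Lama5 and 270.5 in Kidins220. All 6 centres lie downstream of these windows, but the Kidins220 peak begins inside its window, at position 24974966. The windows of Dst and Dync1h1 hold 31 and 30 CG dinucleotides, that of Lama5 holds 24, that of Birc6 holds 21, and those of Firre and Kidins220 hold 12 and 10. CG content therefore ranged widely among start sites upstream of strong first-intron peaks.

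First-intron peaks sat just inside genes. The distance from peak centre to the nearest annotated start had a median of 425 bp (interquartile range 344 to 551), 1146 peaks (79.1%) lay between 200 and 600 bp from a start, and 1319 (91.0%) within 1000 bp. A first intron lies near its own start, and the annotation gives peaks closest to a start to the promoter class, so the rule itself sets much of this range. The shortest distance was 107 bp and the longest 160686 bp, and 20 peaks lay upstream of the nearest annotated start, which is then that of another transcript. The list medians were 396.5 and 432 bp in THOC5 OE cells, 392 and 431.5 in GFP OE cells, 515 and 439 in Pi cells, and 447 and 414 bp in Ctrl. The 4 conditions overlapped, and lists of a condition were not shown to be nearer to each other than to other lists (exact permutation of the lists into pairs, p = 0.6, adjusted p = 0.6 over 4 measures).

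**Figure D1:**
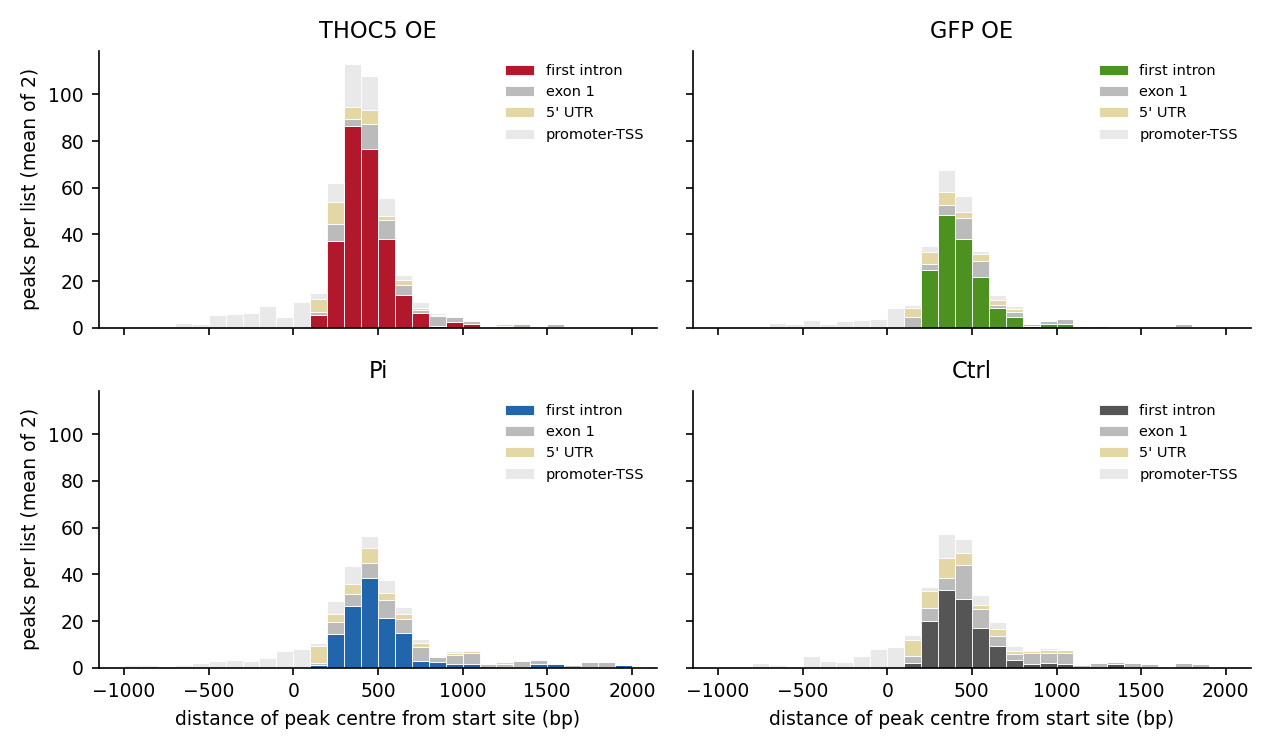
Peaks per list (mean of the 2 lists of a condition) in 100-bp bins of the distance from the peak centre to the nearest start site, stacked by annotated class: first intron, exon 1, 5′ UTR and promoter. First-intron peaks crowd between 200 and 600 bp downstream of the start in all 4 conditions.

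The annotation also labels CpG islands, the CG-dense stretches found at many start sites. Of all first-intron peaks 879 (60.7%) lay in one, and of those within 1000 bp of a start 58.6% to 70.3% per list did. Among the 130 peaks farther away the share per list was 0% to 25%, and among later-intron peaks 0.238% to 0.639%. A RefSeq start window of the gene could be matched to 503 of 619 loci within 1000 bp of a start (81.3%). Their 500 distinct windows had a median GC content of 64% with 25 CG dinucleotides, against 62.7% with 23 for 1986 windows of genes that had a later-intron peak and no first-intron peak, and 52.7% with 7 for all 32851 windows. TATAAA, the core of the TATA box, was found on either strand in 4.8% of the first-intron windows, 5.89% of the later-intron windows and 13.6% of all windows. CCGGAAG, a core recognised by ETS factors, was found on either strand in 14.6%, 17.6% and 8.86% of the same sets, and neither motif can overlap the other. By these counts the start sites of first-intron genes were close to those of genes with a later-intron peak and no first-intron peak. Both sets stood above the genome's windows in CG content. The first set holds only windows matched to a peak, and the second holds every window of its genes.

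The genes were long by span, while their introns were counted without a comparison set. Their median span was 84446 bp, against 67808 bp for genes with a later-intron peak, 44634 bp for genes with any peak and 17149 bp for all protein-coding genes in RefSeq. The annotated transcript had a median of 21 introns, and at most 115, in Syne2. The nearest start belonged to another gene for 25 peaks (1.73%). Only 12 genes were non-coding, and 102 genes carried no THOC5 peak outside the first intron in any list. In 58.6% to 80.9% of first-intron peaks per list the gene had another peak in the same list, against 62.2% to 82.7% of later-intron peaks.

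The share of peaks in first introns was 6.58% and 6.58% in THOC5 OE (304 of 4618 and 279 of 4240 peaks), 4.04% and 6.92% in GFP OE (150 of 3711 and 178 of 2572), 4.80% and 4.03% in Pi (128 of 2666 and 153 of 3793) and 2.69% and 3.90% in Ctrl (70 of 2603 and 187 of 4795). The Wilson 95% intervals of single lists, which cover counting error only, ran from 5.87% to 7.37% over the THOC5 OE lists and from 2.13% to 4.49% over the Ctrl lists. Both THOC5 OE lists stood above all Pi and Ctrl lists, while the GFP OE lists lay on either side of the THOC5 OE lists. The means were 6.58% ± 0.00194 in THOC5 OE, 5.48% ± 2.04 in GFP OE, 4.42% ± 0.543 in Pi and 3.29% ± 0.856 in Ctrl (SD, n = 2 each). The difference was 1.10 points for THOC5 OE minus GFP OE (exact permutation p = 1), 1.06 for GFP OE minus Pi (p = 0.667) and 1.12 for Pi minus Ctrl (p = 0.333), where 0.333 is the smallest p that 2 lists against 2 can give. Without GFP OE replicate 1 the first of these was -0.339, and without GFP OE replicate 2 the second was -0.375. Over all 4 conditions the p was 0.143 (exact permutation, adjusted p = 0.286 over 4 measures), so the share did not separate conditions beyond the spread between lists.

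Peaks just downstream of a start divided between intron and exon in shares that ran in the order of the 4 conditions, although this depended on which classes and how many peaks were counted. Of peaks in exon 1, the 5′ UTR or the first intron that lay up to 1000 bp past a start, the first intron held 77.5% and 79.0% in THOC5 OE (276 first-intron against 80 other peaks, and 259 against 69). It held 68.9% and 76.9% in GFP OE (133 against 60, and 166 against 50), 66.3% and 60.3% in Pi (116 against 59, and 132 against 87) and 55.6% and 58.3% in Ctrl (65 against 52, and 172 against 123). On this count the lists of the 4 conditions did not overlap, with THOC5 OE highest and Ctrl lowest. With peaks of the promoter class up to 1000 bp past a start added to the count, the shares were 64.2% and 66.6% for THOC5 OE, 58.8% and 66.1% for GFP OE, 58% and 48.9% for Pi, and 45.5% and 49.3% for Ctrl. THOC5 OE then overlapped GFP OE, and Pi overlapped Ctrl. On the first count, which leaves promoter-class peaks out, the means were 78.2% ± 1.01 in THOC5 OE and 72.9% ± 5.61 in GFP OE. They were 63.3% ± 4.25 in Pi and 56.9% ± 1.94 in Ctrl (SD, n = 2 each). Without the promoter class, lists of a condition were nearer to each other than in any other pairing (exact permutation p = 0.00952, the smallest that the pairings of 8 lists can give, adjusted p = 0.0476 over 5 measures). This measure was chosen after the data were seen, and the adjusted p was 0.238 with the promoter class added (exact permutation p = 0.143), 0.393 with all lists cut to the 2572 strongest peaks, the length of the shortest list, and 0.0714 among peaks at or above the median score of each list. Single steps gave differences of 5.36 points for THOC5 OE minus GFP OE, 9.60 for GFP OE minus Pi and 6.35 for Pi minus Ctrl (exact permutation p = 0.333 each). The 4 overexpression lists (75.6% ± 4.52) stood 15.5 points above the 4 lists of cells without overexpression (60.1% ± 4.55; SD, n = 4 each). The exact permutation p was 0.0286 and the adjusted p 0.0714. With 1 list left out the adjusted p ran from 0.0476 (without GFP OE replicate 1) to 0.143 (without Pi replicate 2 or THOC5 OE replicate 2) by the same exact permutation. With lists cut to 2572 peaks it was 0.143. Each side pools 2 conditions, and only the Ctrl lists had growth medium, so this contrast mixes overexpression with medium. Peak width was 473 and 538 bp in THOC5 OE cells and 420 and 529 bp in GFP OE cells. It was 553 and 439 bp in Pi cells and 443 and 415 bp in Ctrl. In THOC5 OE, GFP OE and Pi the wider list had the higher first-intron share, and in Ctrl the narrower list did. Whether peak width bears on this share was not tested.

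**Figure D2:**
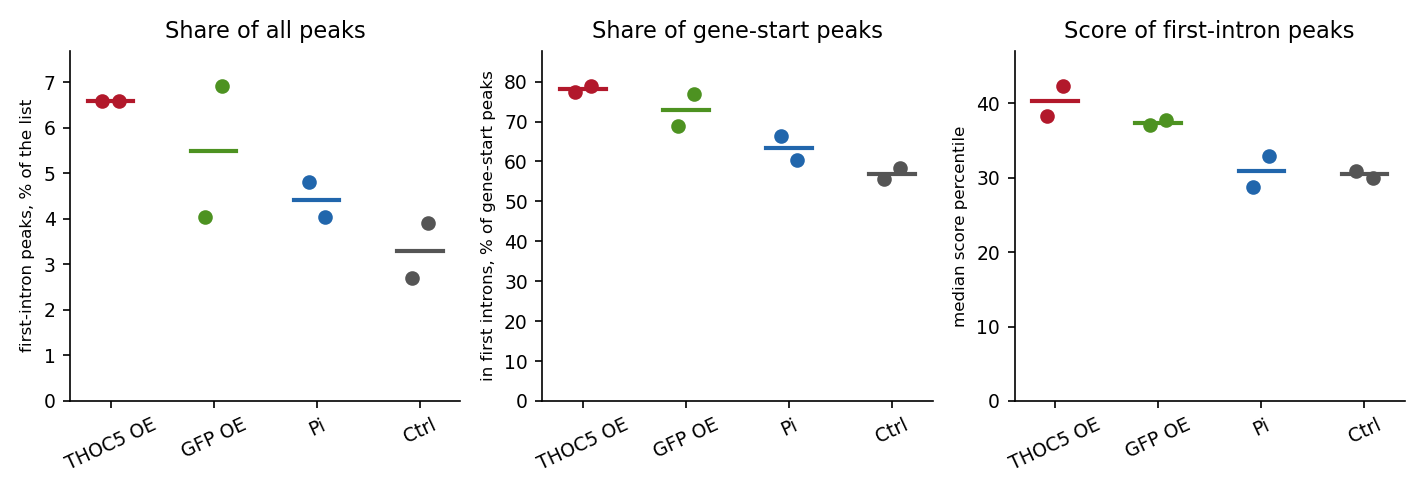
Left, first-intron peaks as a percent of the list; middle, first-intron peaks as a percent of first-intron, exon 1 and 5′ UTR peaks up to 1000 bp past a start; right, median score percentile of first-intron peaks. Points are lists and lines are means of 2 lists; in the middle panel the means run from 78.2% in THOC5 OE to 56.9% in Ctrl, and the lists overlap once promoter-class peaks are counted too.

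First-intron peaks ranked below the middle of their lists by score. Each peak has a score from the authors, used here as a percentile within its list, where 100 is the strongest peak. The median percentile of first-intron peaks was 38.3 and 42.3 in THOC5 OE cells, 37.1 and 37.7 in GFP OE cells, 28.8 and 32.9 in Pi cells, and 30.9 and 30.0 in Ctrl. Over the 8 lists it averaged 34.7, against 45.7 for later introns, and was lower in 8 of 8 lists, with a mean difference of -11.0 ± 5.59 points (SD, n = 8; exact sign-flip permutation p = 0.0078, the smallest possible, adjusted p = 0.0156 over 4 differences). Against all other peaks, which averaged 51.0, the difference was -16.2 (exact permutation, adjusted p = 0.0156). Among peaks at or above the median score of their list, ranked anew among themselves, the difference from later introns was -4.42 (exact sign-flip permutation, adjusted p = 0.125). Promoter-class peaks, the neighbouring class, had medians of 34.2 and 37.1 in THOC5 OE cells, 36.96 and 36.1 in GFP OE cells, 47.5 and 38.6 in Pi cells, and 48.7 and 34.8 in Ctrl, so they ranked below first-intron peaks in all 4 overexpression lists and above them in the other 4.

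By condition, all 4 overexpression lists (37.1 to 42.3) had a higher median percentile than all 4 lists without overexpression (28.8 to 32.9), a difference of 8.22 points (exact permutation p = 0.0286, the smallest that 4 against 4 can give, adjusted p = 0.0714 over 5 measures). With 1 list left out the adjusted p ran from 0.0476 (without GFP OE replicate 1) to 0.143 (without Pi replicate 2 or THOC5 OE replicate 2) by the same exact permutation. Each side pools 2 conditions, and only the Ctrl lists had growth medium, so this contrast too mixes overexpression with medium. The comparison of overexpression lists with the others was also chosen after the data were seen. Among peaks at or above the median score, ranked anew among themselves, the difference was -11.0, which is not on the scale of the whole lists. With lists cut to 2572 peaks and ranked anew it was 4.14 (exact permutation p = 0.2, adjusted p = 0.333). The groups then overlapped, since Ctrl replicate 2 (36.2) stood above both THOC5 OE lists (31.2 and 32.4) and GFP OE replicate 1 (34.3). Over the 4 conditions the p was 0.0476 (exact permutation, adjusted p = 0.190). The difference was 2.91 for THOC5 OE minus GFP OE, 6.57 for GFP OE minus Pi and 0.38 for Pi minus Ctrl, with exact permutation p of 0.333, 0.333 and 1.

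**Figure D3:**
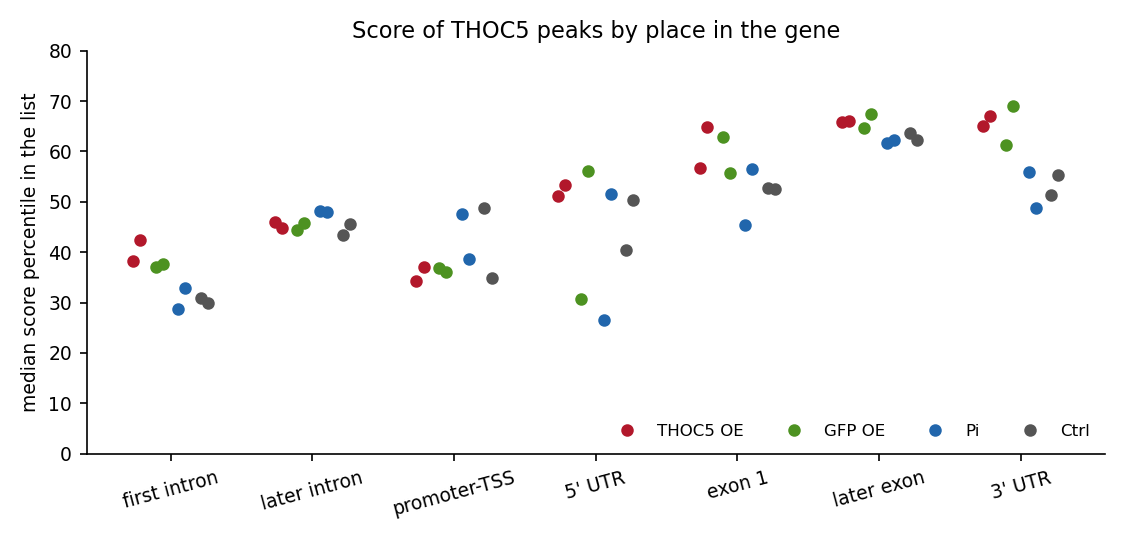
Median score percentile of the peaks of each annotated class in each of the 8 lists (points, coloured by condition; 100 is the strongest peak of a list). First-intron peaks lie between 28.8 and 42.3, below later-intron peaks of the same list in 8 of 8 lists.

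Most first-intron loci appeared in few lists. A locus was counted in a list where a peak of any class covered at least 50% of the narrower interval. It enters the set through a first-intron peak in at least 1 list, so lists with more such peaks weigh more in the locus counts by condition below. Of the 707 loci 351 (49.6%) were in 1 list, against 53.2% of all loci in the series, 138 (19.5%) were in at least 4, against 18.1%, and 9 (1.27%) were in all 8, against 2.16%. Without Ctrl replicate 1, 14 first-intron loci were in all remaining lists, and the share of all loci was not recounted. In 87 loci another list had its peak in another class. The share of first-intron peaks found in at least 1 other list was 72.7% and 78.5% in THOC5 OE cells, 82% and 84.8% in GFP OE cells, 71.9% and 66.0% in Pi cells, and 85.7% and 70.1% in Ctrl. Conditions overlapped (exact permutation p = 0.314, adjusted p = 0.419), and sharing minus that of later-intron peaks was -1.37 points (exact sign-flip permutation, adjusted p = 0.510). Peaks within 1000 bp of a start were shared more often than those farther away, 78.2% against 60.2%, in 8 of 8 lists (exact sign-flip permutation p = 0.0078, adjusted p = 0.0156, for a comparison chosen after the data were seen). That difference of 17.99 points was 7.73 with lists cut to 2572 peaks (adjusted p = 0.422 by the same exact permutation) and -3.15 among peaks at or above the median score. Without Pi replicate 1, or without either THOC5 OE list, its adjusted p was 0.0625 by the same exact permutation. Likewise 130 of 619 loci near a start (21.0%) and 8 of 88 far loci (9.09%) were in at least 4 lists.

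**Figure D4:**
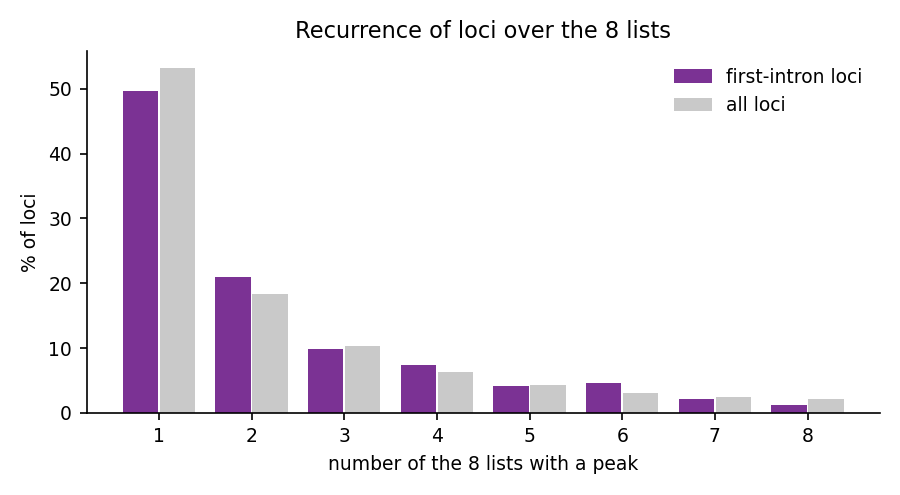
Percent of first-intron loci (707) and of all loci (13205) by the number of the 8 lists in which they have a peak. Of first-intron loci 49.6% are in 1 list and 1.27% in all 8, against 53.2% and 2.16% of all loci.

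The 9 loci present in all 8 lists lay in 8 protein-coding genes and in 1 non-coding gene. Firre, a nuclear long noncoding RNA gene on the X chromosome (chrX:50634704-50635177, intron 1 of 19), had the highest minimum. Its percentiles were 97.3 and 97.1 in THOC5 OE cells, 96.8 and 96.6 in GFP OE cells, 93.3 and 95.5 in Pi cells, and 93.2 and 95.7 in Ctrl. All 8 were near the top of their lists, and by percentile both THOC5 OE lists were above both GFP OE lists, and those above all Pi and Ctrl lists. By rank from the strongest peak, which does not divide out list length, Firre stood at 127 and 125 in the longer THOC5 OE lists and nearer to the top, at 119 and 89, in the GFP OE lists.

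Dync1h1, the heavy chain of the motor cytoplasmic dynein (chr12:110601625-110602098, intron 1 of 76), had percentiles of 95.3 and 95.3 in THOC5 OE cells, 94.9 and 95.3 in GFP OE cells, 90.5 and 91.2 in Pi cells, and 86.2 and 91.7 in Ctrl. Dst, a giant linker of actin, microtubules and intermediate filaments (chr1:34011757-34012295, intron 1 of 97), had 93.5 and 93.5 in THOC5 OE cells, 88.5 and 89.3 in GFP OE cells, 87.5 and 90.0 in Pi cells, and 84.5 and 91.0 in Ctrl. In both genes the THOC5 OE lists were the highest by percentile, by a margin of under 1 point in Dync1h1, and the Pi and Ctrl lists overlapped. By rank, Dync1h1 stood at 216 and 199 in the THOC5 OE lists and at 190 and 122 in the GFP OE lists, the opposite order. By rank, Dst stood at 303 and 278 in the THOC5 OE lists and at 429 and 275 in the GFP OE lists, which overlapped. Birc6, a giant ubiquitin ligase that restrains apoptosis (chr17:74528642-74529115, intron 1 of 72), had 89.2 and 88.6 in THOC5 OE cells, 82.3 and 84.2 in GFP OE cells, 72.4 and 76.7 in Pi cells, and 65.3 and 74.9 in Ctrl. Here THOC5 OE lay above GFP OE and GFP OE above Pi by percentile, and the Pi and Ctrl lists overlapped. By rank THOC5 OE (501 and 485) overlapped GFP OE (656 and 406).

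Wdfy3, an adaptor for autophagy of protein aggregates, had percentiles from 35.7 to 78.2 over the lists, and its intron peak was centred 411 bp past the start. Syne2, which encodes nesprin-2 of the outer nuclear membrane, had 65.1 and 66.9 in THOC5 OE cells, 48.1 and 51.2 in GFP OE cells, 30.7 and 31.6 in Pi cells, and 13.8 and 39.7 in Ctrl. It ran from the upper to the lower part of the lists, with THOC5 OE above GFP OE and GFP OE above Pi by percentile. By rank THOC5 OE (1612 and 1404) overlapped GFP OE (1925 and 1255), and GFP OE overlapped Pi (1849 and 2596). Itpr2, a calcium release channel of the endoplasmic reticulum, ranged from 35.7 to 79.4, the kinase gene Lrrk2 from 30.3 to 72.4, and Atrnl1, which encodes an attractin-like membrane protein, from 15.2 to 74.3. The peaks of these 3 loci were in the first intron in 4, 5 and 4 of the 8 lists and in another class in the rest. Ptprm, a receptor phosphatase of cell contacts, was in 7 lists and missing in GFP OE replicate 2, with percentiles from 59.0 to 73.9.

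Between THOC5 OE and GFP OE, 52 of 522 first-intron loci with a peak in these lists (9.96%) were found in each THOC5 OE list but not in GFP OE, against 7.76% of all loci. In the other direction it was 4 loci (0.766%), against 1.28% of all loci. With lists cut to 2572 peaks the counts were 22 and 7. The shares of all loci were not recounted under this cut, so whether the change is particular to first introns was not tested. Lama5, a laminin chain of basement membranes (chr2:180225228-180225701, intron 1 of 78), had percentiles of 96.0 and 95.9 in THOC5 OE and no peak in GFP OE or Pi, and 87.5 and 92.4 in Ctrl. It was thus among the strongest peaks of 4 lists and missing from the other 4. Kdm5c and Kdm5b, which encode demethylases of histone H3, had 85.1 and 83.0, and 71.4 and 70.7, in THOC5 OE, and each had a peak in 1 Pi list and 1 Ctrl list. The Kdm5c peak was in the first intron in only 1 of its 4 lists.

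The ubiquitin ligase gene Ubr3 had 77.9 and 77.7 in THOC5 OE and was also in Ctrl replicate 2. Pard3, a gene of cell polarity, had 71.9 and 73.6 in THOC5 OE, with lower percentiles from 30.9 to 51.6 in all Pi and Ctrl lists. All 5 of these loci were therefore present in at least 1 list of cells without overexpression. The 4 loci found in each GFP OE list but not in THOC5 OE were Utrn (92.5 and 91.3 in GFP OE), a relative of dystrophin, Nav2 (81.3 and 80.6), Sec24c of the COPII vesicle coat (38.6 and 41.3) and Dock5, an activator of Rac (12.9 and 10.98). The Utrn peak was in the first intron in 1 of its 5 lists.

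At the 68 first-intron loci present in all 4 of these lists, both THOC5 OE percentiles were above both GFP OE percentiles at 58 (85.3%), against 64.1% of all loci, and both were below at 1 (1.47%), against 4.16%, with a median difference of 8.19 points. The THOC5 OE lists are longer in both replicates, and by rank counted from the strongest peak both THOC5 OE lists were nearer to the top at 0 loci, against 2.77% of all loci, and farther from it at 20 (29.4%), against 49.7% of all loci. The direction thus depended on whether list length was divided out.

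Between GFP OE and Pi, 35 of 442 first-intron loci (7.92%) were found in each GFP OE list but not in Pi, against 4.87% of all loci, and 11 (2.49%) in each Pi list but not in GFP OE, against 3.52%. With lists cut to 2572 peaks the first count was 22, and among peaks at or above the median score the second was 2. Here too the shares of all loci were not recounted. Ash1l, a histone H3 methyltransferase gene (chr3:88966066-88966604, intron 1 of 26), had percentiles of 92.7 and 91.7 in the THOC5 OE lists, 93.4 and 89.9 in the GFP OE lists, and no peak in Pi or Ctrl. Its peak was called first-intron in 1 of these 4 lists. Kidins220, a scaffold of neurotrophin receptor signalling (chr12:24974966-24975439, intron 1 of 31), had 71.2 and 71.0 in the THOC5 OE lists, 60.2 and 63.5 in the GFP OE lists, again with no peak in Pi or Ctrl. These 2 genes belonged to 19 first-intron loci (2.69%) found in all 4 overexpression lists and in no other, against 0.833% of all loci. The reverse pattern, all 4 Pi and Ctrl lists and no overexpression list, held for 0 first-intron loci, against 0.22% of all loci. A locus enters the first-intron set through a first-intron peak in any list, and the THOC5 OE lists hold the most such peaks (304 and 279). These 2 contrasts with all loci are therefore not independent of the first-intron share by condition.

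Agrn, the proteoglycan agrin, had 77.4 and 81.3 in GFP OE, and Cdc42bpb, a kinase downstream of Cdc42, had 77.3 and 77.0. Both were missing in Pi and present with lower percentiles in Ctrl, Agrn in replicate 2 (32.0) and Cdc42bpb in both lists (39.1 and 60.4). Mon2, a gene of endosome and Golgi traffic, had 72.7 and 66.1 in GFP OE and was present in both Ctrl lists. In the other direction Son, a splicing factor of nuclear speckles, had 82.3 and 83.9 in Pi, and Nipbl, the loader of cohesin, had 80.4 and 82.8. Neither had a peak in any overexpression list, both had one in Ctrl replicate 2, and the Nipbl peak was first-intron in 1 of its 3 lists. Dysf, a membrane repair gene (48.2 and 56.0 in Pi), Golga4 of the Golgi (46.9 and 55.0) and a locus of Macf1 (36.8 and 38.6) followed. At the 19 first-intron loci in all 4 lists, both GFP OE percentiles were above both Pi percentiles at 15 (78.9%), against 51.4% of all loci, and below at 0, against 11.8%, with a median difference of 14.2 points. By rank from the top the counts were 12 above (63.2%), against 38.2% of all loci, and 0 below, against 7.55%.

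**Figure D5:**
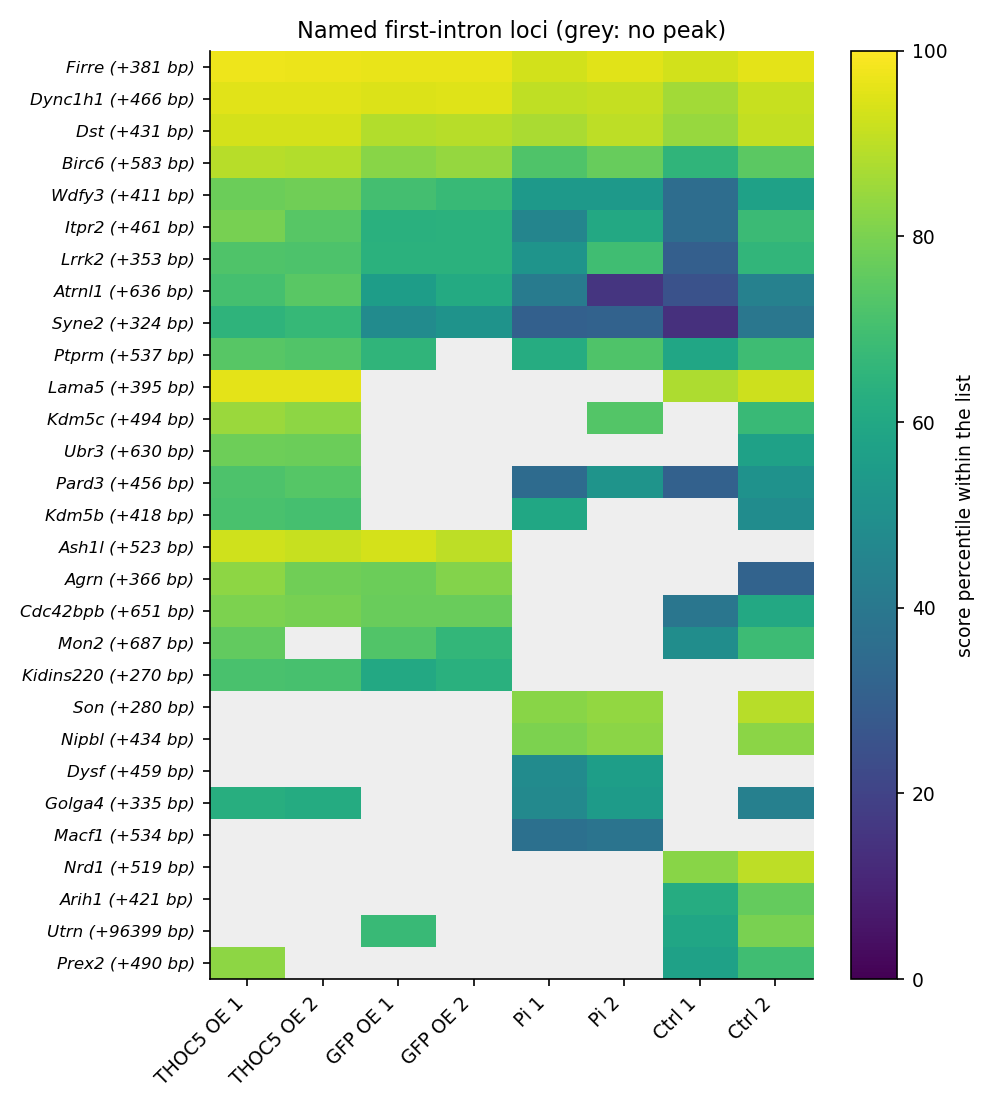
Score percentile of named first-intron loci in each of the 8 lists, with the distance of the peak centre from the nearest start beside the gene; grey marks a list with no peak. The top 9 loci are in all 8 lists; Ash1l and Kidins220 are in the 4 overexpression lists alone.

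Between Pi and Ctrl, osteogenic medium against growth medium, 10 of 395 first-intron loci (2.53%) were found in each Pi list but not in Ctrl, against 2.44% of all loci. Another 16 (4.05%) were found in each Ctrl list but not in Pi, against 4.42%. Both shares were near those of all loci. Among peaks at or above the median score the counts were 2 and 6, with the shares of all loci not recounted. Ubr2, a ubiquitin ligase gene, had 65.6 and 76.0 in Pi and was also in 3 overexpression lists, and the calcium channel genes Itpr1 (58.0 and 51.6) and Itpr3 (30.7 and 64.0) were in all 4 and in 3 of them. Dysf and the Macf1 locus were in the Pi lists alone, each as a first-intron peak in 1 of the 2. In the other direction, after Lama5, the protease gene Nrd1 had 82.1 and 89.9 in Ctrl and the ubiquitin ligase gene Arih1 had 61.9 and 76.5, both with no peak in any other list, Nrd1 as a first-intron peak in 1 of its 2 lists. A Utrn locus 96399 bp from the nearest start (59.0 and 79.7 in Ctrl, first-intron in 1 of 3 lists) and Prex2, an activator of Rac (57.2 and 69.4), were each in 1 overexpression list too. At the 14 first-intron loci in all 4 lists, both Pi percentiles were above both Ctrl percentiles at 0, against 18.1% of all loci, and below at 0, against 3.02%. By rank from the top both Pi lists were above at 8 (57.1%), against 37.1%, and below at 0, against 3.43%.

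Distance singled out few recurrent loci. Among loci in at least 4 lists the nearest to a start were those of Usp34, a deubiquitinase gene (164 bp), Nf1, which encodes the Ras regulator neurofibromin (226 bp), and Eif4g3 of the translation initiation machinery (231 bp). The farthest were in Nav2 (115789 bp), in Macf1 (-43718 bp, upstream of the nearest start) and in Etl4 (10426 bp). The Nav2 locus (chr7:49361771-49362186) had percentiles of 81.3 and 80.6 in GFP OE, 74.2 in Pi replicate 1, and 80.2 and 89.6 in Ctrl, with no peak in THOC5 OE or Pi replicate 2. Where it occurred it was a strong peak. In 32 genes there was more than 1 locus, led by Anks1b with 4, and Syne1 and Macf1 with 3 each. Both Anks1b and Syne1 had loci annotated to more than 1 transcript of the gene, so the first intron of one transcript can lie inside a later intron of another. Atrnl1 and Smc5, a subunit of a cohesin-like complex, had 2 each.

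Gene lists chosen for smooth muscle biology held few first-intron genes in number. Of 4239 genes with any peak 671 (15.8%) had one in the first intron. For contractile genes it was 2 of 10 (Smtn at percentiles 7.35 and 7.79, Tpm2 at 77.4 in 1 Pi list), for osteochondrogenic genes 1 of 4 (Zfhx3, at 77.8 and 81.2) and for phosphate and calcification genes 2 of 3 (Fbn1, at 70.03 and 72.8, and Anxa6, at 0.375). For extracellular matrix genes it was 4 of 20, among them Lama5 and Hspg2 (perlecan), which was in 4 lists at 62.2 to 83.7, and Col5a1 at 92.4 in 1 list. It was 0 of 6 for TGF-beta and BMP genes, 1 of 8 for Wnt genes (Lrp6, a co-receptor, at 5.40), and 2 of 15 for THO, export and nuclear pore genes (Nup214 in 4 lists and Thoc1 in 1 list at 35.8).

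Other lists held more such genes. The count was 9 of 21 for cytoskeletal linkers and adhesion genes (42.9%), 10 of 21 for chromatin genes (47.6%) and 5 of 14 for mRNA decay genes (35.7%). Of the chromatin genes, the histone methyltransferase genes Kmt2c and Kmt2a were in 7 and 6 lists, with percentiles from 5.22 to 60.6 and from 67.1 to 80.5, and the remodeller gene Chd8 was in 3 (44.3 to 52.7). Of the mRNA decay genes, Upf2 and Xrn2 were in 1 list each. These lists were chosen with earlier results of these data known and were not tested.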

How the data were processed

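The 8 deposited lists give each peak a score from the authors' caller; the sources used here give neither its scale nor the caller's settings. Per the file headers, HOMER's annotatePeaks.pl placed the peaks on mm10. FastQC, Bowtie2, MACS2 and SAMtools are named without roles, per the submitters' processing notes. The distance to the nearest start (bp, an other unit) is the authors' deposited annotation. Lists were joined to samples by the condition abbreviation and number in the file headers.

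Peaks were merged into loci where they overlapped by at least 50% of the narrower interval. The score was ranked within each list and not compared between lists. A locus is named by the gene of its annotated transcript. All 680 transcripts matched RefSeq, and gene spans come from RefSeq. Tests were exact permutations over lists (Python 3.11.15, numpy 2.4.6, pandas 2.3.3, scipy 1.17.1, matplotlib 3.10.9). They were two-sided except over the 4 conditions, where only small differences within conditions counted. Benjamini-Hochberg adjustment at 0.05 was used except for differences between 2 conditions, which were not adjusted. Locus merging was tested on simulated data. Lists of equal number were not paired, since their deviations correlated at -0.0699 to 0.0791 between conditions.

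Alternatives were peaks at or above the median score, lists cut to 2572 peaks, repeats kept, peaks within 1000 bp of a start left out, assembled chromosomes only, an overlap of 1 base, promoter-class peaks added to the gene-start count, leaving out each list, and a replicate block. Genes named are the 10 loci in most lists with the highest minimum percentile, the 5 leading loci per comparison and direction, the 5 genes with most loci, up to 4 genes per list, and the 3 nearest and 3 farthest loci found in at least 4 lists, passing over predicted genes. The members, gene lists and tests were chosen with earlier results of these data known. A few genes and a gene list are not reported here.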

Additional observations from a re-analysis of the deposited data

How the results depend on the processing

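On recomputation 299 values were counted as unchanged. Another 31 changed direction, 16 locus counts moved, 8 results lost an adjusted p below 0.05 and 7 gained one. For results with an adjusted p, unchanged means the same side of the threshold and, where there is one, the same direction. Differences between 2 conditions had only to keep their sign, and locus counts had to stay within a set ratio. Shares of all loci were not recounted under any alternative, so the locus counts below stand without them. Values of the replicate block are among the 299 and were counted as unchanged without a check. The cause of the changes was not tested. Differences below are in percentage points, percentile points or bp, and a p is an exact permutation p over lists. Where peaks were left out by score, percentiles were ranked anew among the peaks kept. With peaks at or above the median score, the score over 4 conditions gave an exact permutation p = 0.00952 (adjusted 0.0381), the score of GFP OE minus Pi was -14.9 and that of first introns minus later introns -4.42, and sharing of first minus later introns was 2.13. Loci on one side only then numbered 2 for Pi but not Ctrl, 6 for Ctrl but not Pi, 29 for THOC5 OE but not GFP OE and 2 for Pi but not GFP OE, and 4 were in all 8 lists. For the 4 overexpression lists minus the 4 others, the share was 2.38 higher (exact permutation, adjusted p = 0.0476), the score -11.0 and the gene-start share 21.9 (adjusted p = 0.0476), while the gene-start share over 4 conditions had p = 0.0286 (adjusted 0.0714). Near minus far peaks gave -2.35 in score and -3.15 in sharing. With lists cut to the 2572 strongest peaks, the score of Pi minus Ctrl was -6.77 and of THOC5 OE minus GFP OE -4.18, sharing of THOC5 OE minus GFP OE 12.2 and of first minus later introns 0.979. Loci then numbered 22 for THOC5 OE but not GFP OE, 7 for GFP OE but not THOC5 OE and 22 for GFP OE but not Pi, the gene-start share over 4 conditions had an exact permutation p = 0.257 (adjusted 0.393), and near minus far peaks gave -0.402 in score and 7.73 in sharing. With promoter-class peaks added, an alternative chosen after the data were seen, the gene-start share over 4 conditions had an exact permutation p = 0.143 (adjusted 0.238). With repeats kept, the score of Pi minus Ctrl was -0.512 and sharing of first introns minus other peaks -0.540, and with an overlap of 1 base the sharing difference was -1.51.

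With peaks within 1000 bp of a start left out, which removes most members, the share of GFP OE minus Pi was -0.0396, and distance was -2358 bp for Pi minus Ctrl, -3034 for THOC5 OE minus GFP OE, 7204 for GFP OE minus Pi and 4508 for overexpression minus the others. The score was -20.0 for Pi minus Ctrl, -8.03 for THOC5 OE minus GFP OE and -2.21 for overexpression minus the others, and sharing was -17.6 against later introns and -16.2 against other peaks (exact permutation, adjusted p = 0.0104 for both). Loci then numbered 0 for Pi but not Ctrl, 1 for Ctrl but not Pi, 2 for THOC5 OE but not GFP OE, 1 for the reverse, 3 for GFP OE but not Pi and 1 for the reverse, with 0 in all 8 lists.

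Leaving out each list in turn gave -1.67 to 2.43 for the score of Pi minus Ctrl, -0.755 to 0.756 for sharing of first introns minus other peaks, 9 to 14 loci in all remaining lists, -0.339 to 2.54 for the share of THOC5 OE minus GFP OE, -0.375 to 2.503 for that of GFP OE minus Pi and -17.2 to 22.2 bp for the distance of THOC5 OE minus GFP OE. The 14 loci came without Ctrl replicate 1. For overexpression minus the others it gave 1.79 to 2.84 for the share, 7.06 to 8.97 for the score and 13.9 to 17.7 for the gene-start share. The adjusted p (exact permutation) was 0.0476 for each without GFP OE replicate 1. With other lists left out it ran up to 0.190 for the share and 0.143 for the score and the gene-start share. Near minus far sharing was 16.4 to 21.6, with an adjusted p of 0.0625 without Pi replicate 1 or either THOC5 OE list. The replicate block leaves every mean difference as it was by arithmetic, such as 1.12 for the share of Pi minus Ctrl. It can give no p below 0.5, so it could not have changed a call. Since lists hold peaks only, a missing peak does not show missing binding, and read depth is unknown.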
